A study of Mus musculus with 4 samples.

Results

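Far from any annotated gene, mouse chromosomes still carry scattered fragments that reduced representation bisulfite sequencing (RRBS) reads, and the methylation of those fragments is described here for 9635 windows. A window is a fixed stretch of 1000 bp. CpG sites, each strand counted as its own site, were used if they had a coverage of at least 20 reads in all 4 tumors, lay on an autosome and were more than 10 kb from every gene record of the mouse annotation, of any biotype. Windows with 3 to 19 such sites were kept, and they held 46631 sites. They made up 12.8% of the 75030 windows of the genome with at least 3 sites and 4.31% of the 1081201 sites with enough reads. Of 21130 windows with a site this far from genes, 11388 were left out for having 1 or 2 sites and 107 for having 20 or more. A window's methylation in a tumor is the mean over its sites of the percent of reads that were methylated.

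The study asked how methylation differs between tumors that resist anti-PD1, an antibody that blocks the PD1 checkpoint on T cells, and the parental tumors they derive from. All 4 tumors were lung adenocarcinomas from a mouse model with the genotype p53R172HΔg/+ KrasLA1/+, grown under the skin of the leg in syngeneic female 129Sv/Ev mice of 12 to 16 weeks. Tumors 1 and 2 of the parental group (344SQP) and tumors 1 and 2 of the resistant group (344SQR, derived from 344SQP) came from mice that all received anti-PD1 (10 mg/kg, 4 doses, the first on day 4 after injection), and were collected 24 h after the last dose. No tumors without anti-PD1 are among the samples, so the lines are compared under treatment only. The DNA was from whole tumor tissue, so host stroma and leukocytes are in every value, and each group represents a single cell line.

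DNA methylation places a methyl group on the cytosine of a CpG. In mammalian tissues most CpGs outside CpG islands are methylated, and intergenic DNA, which is rich in mobile element copies, is among the most methylated parts of the genome. Long stretches of gene-poor, late-replicating DNA lose methylation in many cancers, and CpGs with A or T on both sides and no CpG nearby are known to lose it most readily over cell divisions, because maintenance by DNMT1 after replication is less complete there. Enhancers and transfer RNA genes are examples of intergenic elements that can be free of methylation.

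Reads per site were of the same order in all tumors, while the number of sites listed was not. The median coverage of a site in these windows was 82 and 94 reads (parental) and 110 and 108 reads (resistant), and a window held a median of 4 sites. The median number of reads over the sites of a window was 338 and 391 in the parental and 449 and 443 in the resistant tumors. The tables summed to 116794455 and 138331886 CpG calls for parental tumors 1 and 2 and to 160548303 and 174689402 for resistant tumors 1 and 2. The number of CpG sites with any read was 2770733 and 2695851 for the parental tumors, 3772295 in resistant tumor 1 and 6377285 in resistant tumor 2. Resistant tumor 2 thus had the most sites, and it also had the lowest mean methylation over the windows described here. The same sites were compared in every tumor, and the part of this difference between libraries in the results was not tested.

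Intergenic methylation was lower in resistant tumors. Mean methylation over the 9635 windows was 76.8% and 74.7% (parental) and 69.8% and 60.1% (resistant). Both resistant tumors were below both parental tumors, and resistant tumor 2 was the lowest by a wide margin. The means of the lines were 75.8% ± 1.49 in parental and 65.0% ± 6.87 in resistant tumors (SD, n = 2 each), a difference of −10.8 percentage points. This is wider than the spread within the parental or the resistant tumors. The two-sided exact permutation p was 0.333, the smallest that 2 tumors against 2 allow, so no single value here can reach 0.05. The size rests on resistant tumor 2: without it the difference was −5.92 points, and without resistant tumor 1 it was −15.6 points. In whole tumor tissue, fewer or other cells of a type and less methylation per cell cannot be told apart. Medians over windows were 84.5% and 81.8% against 75.2% and 63.8%.

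The loss was spread over most windows. The window difference (resistant minus parental mean) was below 0 in 90.0% of the windows, with a median of −9.63 points and a middle range from −16.7 to −3.77 points. In all 75030 windows of the genome, 76.2% were lower, with a median of −2.61 points. Of the intronic windows described below, 80.9% were lower, with a median of −5.69 points. Of intergenic windows within 10 kb of a gene, 83.1% were lower, with a median of −6.51 points. The extremes among the 9635 windows were −56.1 and 29.9 points. Tumors of the same line also differed: the median absolute difference of a window was 4.12 points between the parental tumors and 10.1 points between the resistant tumors. Resistant tumor 2 was below resistant tumor 1 in 84.8% of the windows, while parental tumor 2 was below parental tumor 1 in 62.3%.

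Windows moved out of the fully methylated class and into the middle classes. Windows at 80 to 100% methylation made up 59.9% and 53.6% (parental) and 40.1% and 25.1% (resistant), so the lines did not overlap. The class of 60 to 80% held 23.3% and 26.1% (parental) and 32.9% and 30.2% (resistant). The class of 40 to 60% held 8.35% and 10.8% (parental) and 16.1% and 22.8% (resistant), that of 20 to 40% held 4.56% and 5.61% (parental) and 5.96% and 13.7% (resistant), and that of 0 to 20% held 3.93% and 3.94% (parental) and 4.84% and 8.25% (resistant). The highest class shrank and each lower class was fuller in both resistant tumors than in both parental tumors. Of the 4837 windows at 80% or more in both parental tumors, 2251 (46.5%) were still at 80% or more in both resistant tumors, and 36 had fallen under 60% in both. The mean of these 4837 windows was 91.5% and 90.8% (parental) and 85.6% and 77.2% (resistant). These windows were chosen by their parental values, so their fall is a description.

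Few intergenic windows were close to unmethylated, and most of those stayed under 20%. In 302 windows both parental tumors were under 20%, with means of 7.47% and 7.66% (parental) and 6.04% and 5.95% (resistant). Both resistant tumors were below both parental tumors in these means, by 1.57 points between the lines. In 291 of these (96.4%) both resistant tumors were under 20% too. In 2 of them a resistant tumor reached 40% or more. These 2, singled out after their values were seen, lie on chromosome 12 from 110381001 to 110382000, with 14.1% and 14.3% (parental) and 41.9% and 12.5% (resistant), and on chromosome 19 from 61199001 to 61200000, with 12.2% and 17.6% (parental) and 21.8% and 40.8% (resistant). In the first the rise was in resistant tumor 1 alone, and in the second resistant tumor 2 was the highest. The 302 windows held 26.8 CpGs per 1000 bp and were 16.3% repeat-masked on average, against 19.2 CpGs and 45.8% for the windows highly methylated in both parental tumors.

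No single intergenic window passed the test across the genome in the fit with line as its only term besides the tumors. All 75018 windows that could be fitted were tested with edgeR (quasi-likelihood, counts of methylated against unmethylated reads), and p-values were adjusted over all of them. Of the 9635 intergenic windows, 0 were called lower in resistant tumors, against 0.128% of all windows, and 0 were called higher, against 0% of all windows. The smallest adjusted p among the intergenic windows was 0.102. At an unadjusted p under 0.05, 2482 intergenic windows (25.8%) were lower and 16 (0.166%) higher, and in all windows 15.3% were lower and 0.737% higher. limma on log2 ratios of reads called 0 lower and 0 higher, against 0% of all windows in both directions. The calls depended on single tumors. Without resistant tumor 1, edgeR called 1083 windows lower (11.2%) and 5 higher (0.0519%), against 5.72% and 0.280% of all windows. It called 16 lower (0.166%, against 0.576%) without parental tumor 1 and 12 lower (0.125%, against 0.257%) without parental tumor 2. In these fits the lone tumor of a line is assumed to vary like those of the other.

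Counted without a test, the direction was common among the windows. In 5891 windows (61.1%) both resistant tumors were below both parental tumors, against 43.7% of all windows of the genome. In 213 windows (2.21%) both were above, against 5.96%, and in the other 3531 the lines overlapped. Both resistant tumors were below both parental tumors with a mean difference of at least 20 points in 1570 windows (16.3%), against 7.52% of all windows. The opposite, at least 20 points higher without overlap, was seen in 10 windows (0.104%), against 0.153% of all windows.

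Among intronic, near-gene intergenic and promoter windows, the intronic ones were most like these windows in methylation and CpG content, and they lost less. The 16051 intronic windows (in a gene, in no exon, more than 2000 bp from every transcription start site, 3 to 19 sites) had 77.5% and 76.6% (parental) and 72.6% and 65.9% (resistant). Intergenic minus intronic methylation was −0.639 and −1.90 points in the parental tumors and −2.73 and −5.78 points in the resistant tumors. Intergenic and intronic windows were thus close in parental tumors and farther apart in resistant tumors, without overlap. From parental to resistant tumors this gap changed by −2.98 points (two-sided exact permutation p = 0.333, the smallest possible), with SDs of 0.892 and 2.16 points within the lines. The change was −1.46 points without resistant tumor 2 and −4.51 points without resistant tumor 1.

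Intergenic windows near genes were less methylated, and they also fell by less. The 7510 windows in no gene but within 10 kb of one, outside promoters, had 68.1% and 67.4% (parental) and 63.0% and 56.6% (resistant). The distant windows were above them by 8.73 and 7.34 points in the parental tumors and by 6.89 and 3.54 points in the resistant tumors, a change of −2.82 points (exact permutation p = 0.333). In the 14708 promoter windows of 3 to 19 sites, the difference between the lines was −2.69 points, from 38.5% ± 1.33 to 35.8% ± 0.385 (SD, n = 2 each).

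Methylation rose with distance from genes in the parental tumors, and so did the loss in resistant tumors up to 250 kb, while the share of repeat-masked bases rose from 33.6% at 10 to 25 kb to 53.4% at 100 to 250 kb. At 10 to 25 kb, 4524 windows had 74.6% and 72.9% (parental) and 68.4% and 59.8% (resistant). At 25 to 50 kb, 2589 windows had 77.4% and 75.2% (parental) and 70.2% and 60.1% (resistant). At 50 to 100 kb, 1586 windows had 79.0% and 76.6% (parental) and 70.9% and 59.99% (resistant). Parental levels climbed from class to class, while resistant tumor 2 stayed near 60% in each of these classes. At 100 to 250 kb, 821 windows had 82.2% and 78.7% (parental) and 73.5% and 61.9% (resistant), and at 250 to 500 kb, 110 windows had 82.5% and 80.9% (parental) and 76.0% and 64.8% (resistant). The difference between the lines was −9.63, −11.1, −12.4, −12.8 and −11.3 points in these classes in order. By distance from protein-coding genes only, it was −8.31, −9.31, −10.0, −10.9 and −12.8 points, and −13.3 points beyond 500 kb. The smaller loss past 250 kb was thus not seen by that distance. The SD of the resistant tumors was 6.14 to 8.24 points in the first 4 classes. Every tumor was measured in every class, so this SD does not measure the steps between classes, which were not tested. By distance from any gene, tumors numbered 1 differed by −6.16, −7.17, −8.14, −8.70 and −6.51 points. Those numbered 2 differed by −13.1, −15.1, −16.6, −16.9 and −16.2 points, and the labels do not pair tumors. The share of windows with both resistant tumors below both parental tumors was 56.5%, 61.2%, 67.7%, 71.9% and 72.7%. It was 61.1% over all 9635 windows and 43.7% over all windows of the genome.

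The distance of 10 kb that defines the windows is not a boundary in the values. Intergenic windows outside promoters at 5 to 10 kb had a line difference of −8.92 points (parental mean 70.6%, resistant mean 61.7%), and those at 10 to 15 kb had −9.07 points (parental mean 72.8%, resistant mean 63.7%). Beyond 500 kb lay 5 windows, with 92.1% and 90.8% (parental) and 81.9% and 69.7% (resistant), a difference of −15.6 points. They lie in 3 gene deserts: 2 on chromosome 1 with Cntnap5a as nearest protein-coding gene, 1 on chromosome 6 nearest to Kcnd2, a potassium channel gene, and 2 on chromosome 11 nearest to Cobl and Pom121l12. The window of chromosome 6 (20295001 to 20296000, 507 kb from a gene) had 89.0% and 88.2% (parental) and 64.3% and 37.2% (resistant). It gave the lowest values of the 5 in both resistant tumors. In RefSeq, a second catalogue described below, the record Gm52880 lies 129 kb from this window. RefSeq records lie 198 and 302 kb from the windows of chromosome 1, and 395 and 430 kb from those of chromosome 11. In the window of chromosome 11 from 13511001 to 13512000, with 96.1% and 93.8% (parental) and 85.2% and 91.8% (resistant), resistant tumor 2 was above resistant tumor 1.

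The sequence of the windows was poorer in CpGs and richer in repeats than that of all windows with at least 3 sites. The intergenic windows held on average 18.3 CpGs per 1000 bp, a GC content of 48.1% and 3.26 CCGG sites, where the MspI enzyme of RRBS cuts. Of their bases, 37.4% were repeat-masked. All windows with at least 3 sites held 31.2 CpGs on average, and 19.6% of their bases were masked. Intronic windows had 18.3 CpGs, 49.5% GC and 3.08 CCGG sites but only 21.3% masked bases. The fewer CpGs a window held, the larger was the loss. The windows were split into 3 classes of CpG density. In the class with the fewest CpGs (up to 14 per 1000 bp), methylation was 78.4% and 74.8% (parental) and 69.5% and 57.3% (resistant). In the class with the most (over 20), it was 75.2% and 74.8% (parental) and 70.3% and 63.8% (resistant). Resistant tumor 2 differed most between these classes, and parental tumor 1 was higher in the class with the fewest CpGs while both resistant tumors were lower there. The line difference was −13.1, −10.7 and −7.92 points from the fewest to the most CpGs. The parental tumors also differed more from each other in CpG-poor windows, by −3.59 points (tumor 2 minus tumor 1) in the class with the fewest CpGs against −0.375 in that with the most.

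Repeat-rich windows were more methylated to begin with. The 2926 windows at least 50% repeat-masked had 86.3% and 83.4% (parental) and 78.3% and 67.2% (resistant), and the 6709 others had 72.7% and 70.9% (parental) and 66.2% and 57.1% (resistant). Both kinds fell without overlap of the lines, by 12.1 and 10.2 points. Both resistant tumors were below both parental tumors in 74.3% and 55.4% of them. This was so in 61.1% of the 9635 windows together and in 43.7% of all windows of the genome. Among the windows under 50% masked, the line difference was −9.004 points at 10 to 25 kb, −10.8 at 25 to 50 kb, −12.1 at 50 to 100 kb and −12.8 at 100 to 250 kb. Among the others it was −11.6, −12.0, −12.7 and −12.8 points. The parental mean rose from class to class in the windows with fewer repeats, from 70.2% at 10 to 25 kb to 76.2% at 100 to 250 kb. In the others it was 84.7%, 85.1%, 85.3% and 84.3% in order, and their line differences also varied less with distance. GC content followed CpG density, with differences of −11.8, −10.7 and −9.75 points from the lowest to the highest of 3 GC classes.

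The gap to introns was present in each of the 11 sequence classes. Within the same class, the line difference of intergenic windows minus that of intronic windows ran from −3.88 points in windows with the fewest CpGs to −1.88 points in those with the most, with no overlap of the lines in that gap in any class. In windows under 50% masked it was −2.55 points and in the others −2.80 points. These class values were not taken with single tumors left out. Over all intergenic and intronic windows, the change in the gap was −1.46 points without resistant tumor 2. When windows were split by their mean over all 4 tumors, the gap was not in every class. The line difference was −3.83 points (−4.11 in introns) at 0 to 20% and −8.97 (−9.26) at 20 to 40%. In the classes above 40% it was −15.6 (−13.5), −14.8 (−12.6) and −6.71 (−3.88).

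The bases around a CpG were related to its loss. This was looked at after the results above were seen. The 4541 sites with A or T on both sides had 70.7% and 66.6% (parental) and 61.9% and 49.3% (resistant), and the 28432 sites with G or C on both sides had 76.9% and 75.9% (parental) and 70.9% and 62.8% (resistant). The sites with A or T were lower in every tumor and further apart between the lines, by −13.0 against −9.51 points. The 5501 sites with no other CpG within 35 bases had 71.0% and 66.8% (parental) and 61.8% and 48.9% (resistant), and the 18448 sites with 3 or more CpGs nearby had 76.7% and 76.6% (parental) and 72.2% and 66.1% (resistant). Only 256 sites (0.549%) combined A or T on both sides with no other CpG nearby. These had 55.1% and 47.4% (parental) and 44.3% and 29.9% (resistant), the lowest levels of any kind of site looked at, and the lines did not overlap. Their line difference was −14.2 points (27.7% of the parental level), against −6.40 points (8.27%) at the 10167 sites with G or C on both sides and 3 or more CpGs nearby. Parental tumor 2 was below parental tumor 1 in the same sites, by −7.70 points (tumor 2 minus tumor 1), against 0.562 in the dense sites. In introns the line differences for the same 2 kinds of site were −12.0 and −4.08 points.

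Every autosome lost methylation. On each of the 19 autosomes, with 212 to 840 windows, both resistant tumors were below both parental tumors. The line difference had an SD of 0.666 points over chromosomes. The largest was on chromosome 8 (479 windows), with 77.9% and 75.7% (parental) and 69.1% and 60.2% (resistant), a difference of −12.2 points. The smallest was on chromosome 13 (542 windows), with 77.3% and 75.3% (parental) and 71.7% and 62.3% (resistant), a difference of −9.34 points. The SD of the resistant tumors was 6.34 and 6.68 points on these 2. Every tumor was measured on every chromosome, so this SD does not measure how chromosomes differ, which was not tested. Levels themselves varied more, from 71.1% (chromosome 11) to 81.8% (chromosome 10) in parental tumor 1, and these chromosomes were also the lowest and highest in the other tumors, at 69.7% and 80.1% in parental tumor 2, 64.3% and 75.7% in resistant tumor 1, and 55.7% and 66.0% in resistant tumor 2.

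Regions within chromosomes were also described, from fewer windows each, so their values are less precise than those of chromosomes. The autosomes were divided into segments of 10 Mb, a division chosen after the chromosome values were seen, and 221 segments held at least 20 windows. In each of them both resistant tumors were below both parental tumors. The difference ran from −18.6 to −4.24 points, with a median of −10.7. The largest was on chromosome 1 from 40 to 50 Mb (32 windows), with 86.1% and 83.6% (parental) and 74.5% and 58.0% (resistant). The smallest was on chromosome 4 from 100 to 110 Mb (22 windows), with 79.1% and 76.5% (parental) and 76.1% and 71.1% (resistant). Within chromosomes, windows 1 to 5 kb apart were weakly related in their line difference (Pearson r = 0.220 over 1336 pairs that share tumors and libraries), and windows 500 to 2000 kb apart hardly at all (r = 0.0241, 71192 pairs).

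Being far from genes depends on the annotation. RefSeq, a second catalogue of the same genome build that also lists many predicted transcripts and the transfer RNA (tRNA) genes, was compared after the values had been seen. Of the windows, 1192 (12.4%) lay in a RefSeq gene record, 1103 (11.4%) within 10 kb of one, and 7340 (76.2%) were far from genes in both catalogues. The last had 78.5% and 76.0% (parental) and 71.1% and 60.9% (resistant), and those in a RefSeq record 71.0% and 70.5% (parental) and 65.2% and 57.3% (resistant). The line difference was −11.2 points in the first and −9.50 points in the second, so the loss was present in both and the windows far from genes in both catalogues had the higher parental level. Windows under 20% in both parental tumors made up 5.29% of those in a RefSeq record and 2.45% of those far from one.

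Windows with tRNA genes were mostly unmethylated. RefSeq places 15 tRNA genes in 13 of the windows, and in 10 of these windows all 4 tumors were under 20% methylation. Of all windows, 3.13% were under 20% in both parental tumors, and of those with a tRNA gene 76.9%. The window of n-TFgaa5, a tRNA gene for phenylalanine (chromosome 14, 118089001 to 118090000, 19 sites), had 1.43% and 1.29% (parental) and 0.921% and 0.874% (resistant). The window of n-TKctt16, for lysine (chromosome 3, 96499001 to 96500000), had 2.80% and 2.98% (parental) and 2.60% and 1.82% (resistant). All 4 tumors were close to 0 in both. The other 3 windows were partly or highly methylated. That of n-TCgca24, for cysteine (chromosome 6, 48332001 to 48333000), had 69.0% and 61.4% (parental) and 48.4% and 26.5% (resistant), a fall larger than the mean over all windows. That of n-TTcgt2, for threonine (chromosome 13, 21264001 to 21265000), had 20.6% and 41.0% (parental) and 13.3% and 20.3% (resistant), and resistant tumor 2 was just under parental tumor 1. That of n-TMcat3, for methionine (chromosome 15, 69396001 to 69397000), had 90.0% and 90.7% (parental) and 85.0% and 83.8% (resistant). The windows with RefSeq regulatory elements, 66 in number, were between these kinds at 52.4% and 55.0% (parental) and 49.5% and 44.8% (resistant).

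Windows were also grouped by their nearest protein-coding gene, which can be far away. Over all windows the median difference was −9.63 points and 61.1% had both resistant tumors below both parental tumors. For cadherin and synaptic adhesion genes, many of whose proteins join neighbouring cells, there were 308 windows at 49 genes (median distance 440.4 kb, 57.3% masked). These had 82.5% and 78.9% (parental) and 72.9% and 60.2% (resistant), a median difference of −12.7 points, and 233 (75.6%) without overlap below. For glutamate and GABA receptor genes, 65 windows at 18 genes (146 kb, 49.1% masked) had 81.3% and 78.2% (parental) and 71.6% and 58.5% (resistant), with a median difference of −12.9 points and 45 windows (69.2%) below. Both lists had higher parental levels, more repeat-masked bases and larger median differences than all windows, of which 37.4% of bases were masked, and the parts of distance and repeats in this were not tested. For olfactory and pheromone receptor genes, which sit in clusters, 127 windows at 91 genes (20.4 kb, 74.8% masked) had 86.4% and 83.6% (parental) and 79.2% and 68.7% (resistant), a median difference of −10.2 points, and 92 (72.4%) below. For developmental transcription factor genes, 325 windows at 89 genes (87.2 kb, 23.8% masked) had 70.4% and 69.4% (parental) and 63.4% and 54.9% (resistant), a median of −9.78 points and 185 (56.9%) below.

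Windows with nearest genes of BMP and TGF-beta signaling, the pathway to which the study turned, were also listed, and their difference from all windows was not tested. The 108 windows at 28 of these genes (median distance 76.5 kb, 22.3% masked) had 72.5% and 73.5% (parental) and 67.1% and 60.3% (resistant), a median difference of −8.25 points, with 58 (53.7%) below without overlap. Of these, 19 windows lay nearest to Bmp7, a secreted BMP ligand, at 10.2 to 141 kb from the gene. Their mean was 67.6% and 68.9% (parental) and 58.2% and 50.4% (resistant), and both resistant tumors were below both parental tumors in 13 of them, beside 61.1% of all windows. The 15 windows nearest to Smad2, which carries TGF-beta signals to the nucleus, had 61.9% and 62.6% (parental) and 52.0% and 46.0% (resistant). The 5 windows nearest to Id4, a target of BMP signaling, had 80.6% and 76.0% (parental) and 68.3% and 53.2% (resistant). These 3 genes were singled out after their values were seen, and resistant tumor 2 was the lowest in each, as over all windows.

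Among the other lists, a few genes were singled out after their values were seen, most of them for holding many windows, and their counts stand beside 61.1% of all windows with both resistant tumors below both parental tumors. The 18 windows nearest to Sox9, a regulator of cartilage and lung progenitors that is flanked by a gene desert, had 74.3% and 78.1% (parental) and 73.9% and 73.4% (resistant), a difference of −2.50 points with 8 windows below without overlap. Parental tumor 1 and the resistant tumors were alike there, and parental tumor 2 was the highest. The 8 windows nearest to Pax2, a kidney and midbrain regulator, were low in every tumor, with 35.6% and 43.1% (parental) and 35.6% and 37.5% (resistant), and the lines overlapped. The 20 windows nearest to Pcdh7, a protocadherin, had 84.8% and 80.5% (parental) and 73.9% and 58.5% (resistant), and 16 were below without overlap. At Cdh20, a cadherin, 14 of 14 windows were below, with means of 81.7% and 79.2% (parental) and 72.3% and 57.3% (resistant). The 15 windows nearest to Grik3, a kainate receptor subunit, had 67.9% and 67.4% (parental) and 55.8% and 43.2% (resistant). At Pcdh7, Cdh20 and Grik3 resistant tumor 2 was well below resistant tumor 1.

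Single windows were named by rule: among windows with at least 5 sites, no overlap of the lines and a difference of at least 20 points, the 5 lower and 5 higher with the smallest edgeR p. There were 484 candidates for the lower group and 4 for the higher, so all of the latter are given. No adjusted p among them was under 0.05 in the edgeR fit of all 4 tumors with line as its only term besides the tumors. The window on chromosome 2 from 160264001 to 160265000 (7 sites, 58 to 189 reads each) had the largest difference of the 5, with 85.2% and 83.8% (parental) and 50.1% and 22.6% (resistant), a log2 ratio of odds of −3.33 (SE 0.66, edgeR adjusted p = 0.127). Parental tumors were alike and both resistant tumors were far below them. It lies 46.8 kb before Gm826, a protein-coding gene, and 224 kb after the long noncoding RNA gene 9130015L21Rik, in a predicted RefSeq transcript, Gm46773. Single CpGs of the window ranged from 64.8% to 93.9% in parental tumor 1 and from 14.1% to 29.3% in resistant tumor 2.

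The window on chromosome 4 from 135069001 to 135070000 (11 sites, 72 to 212 reads) had 26.3% and 41.9% (parental) and 8.01% and 6.77% (resistant), a log2 ratio of odds of −2.79 (SE 0.52, edgeR adjusted p = 0.102). It was only partly methylated in the parental tumors, which differed from each other, and close to unmethylated in both resistant tumors. It lies 50.7 kb before Runx3, a transcription factor of T cells and epithelia, 48.2 kb from the noncoding gene Gm16225 and 132 kb after Syf2, a splicing factor gene. The other 3 were repeat-rich windows near 90% or above in both parental tumors. On chromosome 6 from 122119001 to 122120000, a window between Mug2, a gene of the murinoglobulin protease inhibitors, at 33.6 kb and the pseudogene Gm10319 at 16.9 kb had 96.6% and 95.9% (parental) and 82.7% and 69.0% (resistant), a log2 ratio of odds of −3.05 (SE 0.57, edgeR adjusted p = 0.102). Another, on chromosome 6 from 133422001 to 133423000, 41.4 kb from the pseudogene Gm44239 and 107 kb from Gm5885, had 92.4% and 90.9% (parental) and 71.6% and 61.3% (resistant), a log2 ratio of odds of −2.47 (SE 0.51, edgeR adjusted p = 0.139). A further one, on chromosome 4 from 10453001 to 10454000, between the pseudogene Gm11814 at 13.4 kb and the noncoding gene 1700123O12Rik at 26.1 kb, had 93.5% and 92.2% (parental) and 75.2% and 59.0% (resistant), a log2 ratio of odds of −2.69 (SE 0.56, edgeR adjusted p = 0.140). In the last 3, resistant tumor 1 lay between the parental tumors and resistant tumor 2, and the means cover unlike CpGs. Single CpGs of resistant tumor 2 ranged from 24.0% to 91.2% near Mug2, 30.0% to 97.6% near Gm44239 and 11.2% to 99.2% near Gm11814. In parental tumor 1 the ranges were 91.4% to 99.0%, 83.3% to 100% and 88.2% to 100%. With single tumors left out, the edgeR adjusted p ranged from 0.00903 to 0.315 for the window near Gm826, 0.00366 to 0.242 for that near Runx3, 0.0156 to 0.296 for that near Mug2, 0.0245 to 0.410 for that near Gm44239 and 0.0209 to 0.420 for that near Gm11814, each highest without resistant tumor 2. The edgeR adjusted p was under 0.05 in all 5 without resistant tumor 1 (from 0.00903 to 0.0266). Without parental tumor 1 it was also under 0.05 near Gm826 (0.0455), Runx3 (0.00366) and Mug2 (0.0476) in the edgeR fit, and without parental tumor 2 near Gm826 (0.0319) and Gm44239 (0.0356).

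The 4 windows that were higher in resistant tumors began at middle or low levels and were more CpG-rich in 3 of 4. The window on chromosome 5 from 129463001 to 129464000 (5 sites, 112 to 171 reads, 14 CpGs per 1000 bp) had 54.1% and 62.7% (parental) and 77.6% and 84.3% (resistant), a log2 ratio of odds of 1.61 (SE 0.56, edgeR adjusted p = 0.226). It lies 37.4 kb from Sfswap, a splicing regulator gene, with Gm40332 at 36.3 kb and Gm43001 at 99.0 kb as the nearest records. A window on chromosome 11 from 58239001 to 58240000 (37 CpGs), 16.8 kb from Irgm2, an interferon-induced GTPase gene, and 35.1 kb from 4930438A08Rik, had 20.7% and 28.6% (parental) and 35.7% and 57.8% (resistant), a log2 ratio of odds of 1.45 (SE 0.64, edgeR adjusted p = 0.300). On chromosome 9 from 43879001 to 43880000, a window (33 CpGs), between Gm3898 at 46.4 kb and the small nuclear RNA gene Gm23326 at 25.9 kb, had 28.3% and 29.3% (parental) and 42.8% and 55.7% (resistant), a log2 ratio of odds of 1.22 (SE 0.63, edgeR adjusted p = 0.364). The last, on chromosome 7 from 63858001 to 63859000 (35 CpGs), 27.6 kb from Klf13, a zinc finger transcription factor, and 31.4 kb from the pseudogene Gm44720, had 15.2% and 26.6% (parental) and 27.6% and 54.5% (resistant), a log2 ratio of odds of 1.15 (SE 0.65, edgeR adjusted p = 0.403). The second of the 4 lies in a RefSeq record, Gm51898, and the third and the last lie 7.51 and 5.998 kb from the RefSeq records Gm39322 and Gm39023. In the last of these parental tumor 2 and resistant tumor 1 differed by about a point. Resistant tumor 2 was the highest in all of them. With single tumors left out, their edgeR adjusted p ranged from 0.0670 to 0.960.

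Sequences are shown for windows where the change was large and in opposite directions, since they show how many CpGs a value rests on. Each is the plus strand of GRCm38, 5′ to 3′, from the first to the last CpG that was read, with those CpGs in capitals. The window near Gm826 (chr2:160264343-160264563) and that near Runx3 (chr4:135069795-135069994) were lower in resistant tumors, and those near Sfswap (chr5:129463744-129463777) and Klf13 (chr7:63858635-63858798) were higher. The stretches hold 6 of 6, 8 of 8, 5 of 5 and 9 of 11 CpGs read.
window near Gm826: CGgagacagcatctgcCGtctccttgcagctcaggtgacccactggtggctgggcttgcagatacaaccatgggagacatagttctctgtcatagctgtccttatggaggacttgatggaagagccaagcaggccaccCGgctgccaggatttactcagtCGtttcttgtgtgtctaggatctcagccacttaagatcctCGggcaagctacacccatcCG
window near Runx3: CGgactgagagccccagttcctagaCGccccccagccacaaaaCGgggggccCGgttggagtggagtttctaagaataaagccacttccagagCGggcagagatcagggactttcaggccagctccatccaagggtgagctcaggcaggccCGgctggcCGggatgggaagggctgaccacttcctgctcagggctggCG
window near Sfswap: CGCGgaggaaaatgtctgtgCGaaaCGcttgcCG
window near Klf13: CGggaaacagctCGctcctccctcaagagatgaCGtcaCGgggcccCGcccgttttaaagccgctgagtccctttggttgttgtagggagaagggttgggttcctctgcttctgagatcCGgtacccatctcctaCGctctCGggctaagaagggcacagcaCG

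The most and least methylated windows were ranked by the mean over all 4 tumors, a choice that puts each tumor near an end of the scale. Among the 543 windows with at least 10 sites, the lowest was on chromosome 4 from 55651001 to 55652000 (12 sites, 22 to 99 reads), with 0.392% and 0% (parental) and 0.633% and 0% (resistant). It lies 14.6 kb from the noncoding gene Gm12506, 119 kb from Klf4, a transcription factor of epithelia and stem cells, and 317 kb from Gm12519, and holds 64 CpGs. The next was on chromosome 7 from 98815001 to 98816000, 19.2 kb before Wnt11, which encodes a secreted Wnt ligand, and 80.2 kb from Gm44934, with 0.292% and 0.615% (parental) and 0.392% and 1.08% (resistant). It holds the tRNA genes n-TPtgg8 and n-TPagg7, both for proline. The highest was on chromosome 3 from 23687001 to 23688000 (17 sites, 98.7% repeat-masked), 110.2 kb from Naaladl2 and 166 kb from 4930412E21Rik, with 97.2% and 100% (parental) and 98.0% and 96.4% (resistant). The next, on chromosome 12 from 77959001 to 77960000 (15 sites), 139 kb from Gm8219 and 206 kb from Gm24994, had 98.6% and 96.9% (parental) and 97.5% and 98.2% (resistant).

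Some windows of middle methylation moved little; they are named for their small range. Among 2002 windows with at least 5 sites and a mean of 20 to 80%, the smallest range was on chromosome 1 from 141019001 to 141020000 (6 sites), with 77.2% and 76.1% (parental) and 76.9% and 77.0% (resistant), in a desert 196 kb from Gm37371 and 237 kb from Gm4845. The next was on chromosome 15 from 36986001 to 36987000 (5 sites), 10.3 kb from Zfp706 and 37.0 kb from Gm34590, with 77.7% and 77.3% (parental) and 76.3% and 77.8% (resistant). In the window near Zfp706 the mean covers unlike CpGs, which ranged from 0% to 100% in parental tumor 1 and from 0% to 100% in resistant tumor 2. The window farthest from a gene was on chromosome 1 from 114558001 to 114559000, in a desert 594 kb from 9330185C12Rik and 661 kb from Gm4854. The RefSeq record Gm33042 lies 302 kb from it. This window was 100% repeat-masked and had 95.7% and 92.6% (parental) and 92.1% and 84.6% (resistant). The sequence of the window near Zfp706 (chr15:36986640-36986743) and the tRNA stretch near Wnt11 (chr7:98815265-98815564, the first 300 bases, with 9 of 19 CpGs read) are given on the plus strand of GRCm38 with the CpGs read in capitals, as examples of stable windows.
window near Zfp706: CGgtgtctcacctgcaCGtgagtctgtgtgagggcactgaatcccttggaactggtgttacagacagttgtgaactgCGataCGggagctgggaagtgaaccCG
window near Wnt11: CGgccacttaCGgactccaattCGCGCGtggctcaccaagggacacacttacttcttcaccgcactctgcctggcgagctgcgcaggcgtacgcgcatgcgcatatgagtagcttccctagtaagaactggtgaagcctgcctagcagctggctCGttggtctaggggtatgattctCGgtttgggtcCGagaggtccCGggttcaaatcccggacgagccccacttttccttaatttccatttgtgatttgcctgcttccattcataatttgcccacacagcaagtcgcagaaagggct

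Cells other than tumor cells could be judged little from these tables, and leukocyte markers are not reported. Promoters of marker genes had at least 3 sites with enough reads for 1 of 4 endothelial and fibroblast genes and 4 of 6 epithelial genes. The promoter of Pdgfrb, a fibroblast and pericyte receptor, had 27.4% and 26.4% (parental) and 23.9% and 24.2% (resistant) over 3 sites, and the resistant tumors were slightly below the parental tumors there. The epithelial list had a mean of 5.85% and 7.51% (parental) and 8.13% and 8.51% (resistant): Epcam rose from 4.70% and 5.37% to 16.8% and 16.2% (3 sites), while Cdh1 was near 6% in every tumor (6.25%, 6.04%, 5.76% and 5.83%), Krt18 had 5.69% and 4.68% (parental) and 2.70% and 4.73% (resistant), and Nkx2-1 had 6.74% and 14.0% (parental) and 7.24% and 7.31% (resistant). The part of cell composition in the intergenic difference was not tested.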

How the data were processed

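Reads were trimmed by the submitters using Trim Galore 0.4.1 and cutadapt 1.9.1, and mapped to mm10 with Bismark and Bowtie 1.1.2. The authors deposited, for each tumor and strand of a CpG, the coverage as a read count and the percent of reads methylated (submitters' processing notes and methods). Replicates were not pooled and the deposited counts are not normalized.

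Methylated reads were recomputed as coverage times percent, rounded. All 1167629 sites with at least 10 reads in every tumor matched a CpG of GRCm38. Genes were those of GENCODE vM21. At 20 reads, 1 read is worth 5 points. Line differences of single values were tested by two-sided exact permutation tests over tumors, and windows by edgeR 4.0.16 on reads summed per window, with an effect for each tumor, no block and Benjamini-Hochberg adjustment over 75018 windows (R 4.3.3). Windows without any methylated or any unmethylated read were not fitted. Alternatives were the coverage minimum, merged strands, a coverage limit, the site number, the distance, gene biotype, repeats, pooled or thinned reads, each tumor left out, limma 3.58.1, the study's site test with Stouffer's z score and a replicate block. Named windows were the 5 lower and 5 higher windows with the smallest edgeR p (at least 5 sites, no overlap, at least 20 points, 1 per 50 kb), the farthest, the 2 lowest and 2 highest with at least 10 sites, and 2 of smallest range. The edgeR fit was also run on simulated reads, and its outcome there is not given here. Python 3.11.15, numpy 2.4.6, pandas 2.3.3 and scipy 1.17.1 were used. The list of leukocyte markers is not reported. The members and lists were chosen with earlier results of these data known, and the RefSeq, tRNA, sequence context and segment descriptions after the values were seen.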

Additional observations from a re-analysis of the deposited data

Results flagged for a closer look

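Reads on chromosome Y were seen in all 4 tumors, although the hosts were female. They made up 0.0406% and 0.0254% of CpG calls in parental tumors 1 and 2 and 0.0555% and 0.0178% in resistant tumors 1 and 2. The share was lower in the tumors numbered 2 in each line, and the order did not follow the lines. Its part in the intergenic values was not tested.

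Sites far from genes with only 1 to 5 reads, which no value above uses, also carried a signal. Over 230589 and 217984 such sites in the parental tumors, 75.3% and 70.1% of reads were methylated, and over 369132 and 816999 in the resistant tumors 71.2% and 51.3%. At the 11793 sites that had 1 to 5 reads in all 4 tumors the shares were 74.0%, 69.3%, 69.7% and 55.6% in the same order. Resistant tumor 2 was the lowest in both, while resistant tumor 1 and parental tumor 2 were alike, so the lines overlapped in both sets of sites.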

How the results depend on the processing

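The mean line difference stayed negative in every setting run, from −12.5 to −9.61 points over other processing and from −15.6 to −5.92 points with single tumors left out. The gap to introns also kept its sign, and was largest in windows more than 50 kb from genes (−4.67 points), with −4.51 to −1.46 points when tumors were left out. Both resistant tumors were below both parental in 1749 of 2522 windows (69.3%) at more than 50 kb, 2496 of 3913 windows (63.8%) with 5 to 19 sites, 3717 of 6709 windows (55.4%) under 50% masked and 9275 of 15714 (59.0%) by distance from protein-coding genes, beside 61.1% as reported. Chosen after seeing the data, windows also more than 10 kb from RefSeq records gave −11.2 points. By distance from protein-coding genes, edgeR called 2 of the 15714 windows lower, against 0.128% of all windows. Both lie within 10 kb of noncoding gene records, so they are not among the windows described, on chromosome 11 from 117931001 and chromosome 13 from 48228001. With single tumors left out it called 0 to 1083 lower and 0 to 5 higher, against 0.0853% to 5.72% and 0.00133% to 0.284% of all windows. The study's site test with Stouffer's z score, which takes reads rather than tumors as replicates, called 7187 lower and 302 higher, against 50.6% and 7.99% of all windows.

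With the replicate number as a replicate block, edgeR called 3058 windows lower (31.7%) and 27 higher, against 19.1% and 1.52% of all windows. Deviations of tumors numbered 1 from their line means were related across windows (r = 0.551), but nothing in the labels pairs them, and 2 pairs cannot show it. The 18 named-window values that passed the threshold when a tumor was left out or blocked kept their direction, and the line difference kept its sign on each chromosome with tumors left out and in each distance class by distance from protein-coding genes.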

Other observations

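Chromosome X was left out of the windows above. Its 601 windows far from genes had 84.8% and 82.1% (parental) and 80.03% and 68.5% (resistant), a difference of −9.16 points. Both resistant tumors were below both parental tumors in 51.1% of the 601 windows, against 61.1% of the autosomal windows described and 43.7% of all windows of the genome. The windows of chromosome X were 66.8% repeat-masked, and their parental level was above that of each autosome.

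The windows left out for holding 20 or more sites had a low mean, at 18.4% and 22.9% (parental) and 18.5% and 22.1% (resistant), where both tumors numbered 2 were higher than both numbered 1. Those with 1 or 2 sites had 77.9% and 74.2% against 68.5% and 55.9%, with the same order of tumors as the windows described.

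The kind of the nearest gene record differed in level as well. Windows nearest to a processed pseudogene (2239 windows) had 81.0% and 78.5% (parental) and 73.2% and 62.4% (resistant), those nearest to a protein-coding gene (3138) had 73.9% and 71.9% (parental) and 67.7% and 58.9% (resistant), and those nearest to a long intergenic noncoding RNA gene (2196) had 76.3% and 74.5% (parental) and 69.3% and 59.7% (resistant). The first were 48.8% repeat-masked, against 31.8% and 30.2%.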
